A study of Mus musculus with 8 samples.

Results

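Retinoic acid is made from vitamin A inside cells and acts through nuclear receptors, and its synthesis and reception are followed here through 10 genes: the retinol receptor Stra6, the retinol and retinaldehyde enzymes Rdh10 and Dhrs3, the retinaldehyde dehydrogenases Aldh1a1, Aldh1a2 and Aldh1a3, the carrier Crabp2 and the receptors Rara, Rarb and Rarg. The list was chosen on measured values of these arrays, the higher Aldh1a3 and lower Aldh1a1 signals with TGF-beta, so the TGF-beta differences of these 2 genes are given as a description with no test. The other 8 genes entered by their role in the pathway, on a list made with results of these arrays known. The 10 genes have 19 named probes among the 45281 probes of the array, and 7 of these probes, from 5 genes, were bright enough to be tested.

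The data come from 8 samples of mouse intestinal organoids, each hybridised to its own Illumina bead array. All organoids came from mice of C57Bl background aged 3 to 4 months, were Apc-mutated and received tamoxifen, and were then kept without growth factors. The 4 untreated samples received nothing more, and the 4 TGF-beta samples were given TGF-beta, 3 ng/ml over 18 h. The sources used here do not give the Cre driver, nor whether samples of 1 group came from separate cultures or animals, so a p-value reflects the spread among these samples alone, and that spread may in part be technical. Organoids with intact Apc were not analysed here, and the tested Apc probe, at 5.62 ± 0.16 and 5.26 ± 0.04 (SD, n = 4, limma adjusted p = 0.088), does not check the mutation.

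Levels are normalized log2 intensities, with the SD over 4 samples. A probe counts as detected on an array when its detection p is under 0.05, and the lowest detected signals lie between 5.04 and 5.23. Values below that are background. Each array detected between 14554 and 16626 probes. Of 12 markers of intestinal epithelium, 10 were detected on all 8 arrays, Fabp1 on none, and Epcam on 0 untreated and 4 TGF-beta arrays. With TGF-beta 7 of the 11 tested epithelial markers rose and 3 fell, where 9.56% of all tested genes rose and 9.88% fell. The summed intensity of the 12 ran from 24103 to 26007 in untreated and from 49642 to 57153 in TGF-beta samples. Sums are of unlogged values, so the brightest genes weigh most in this shift, and single markers went both ways. The part of this shift in the differences below was not tested. Of 11 fibroblast and muscle markers 8 were detected on no array, among them Col1a1, Col1a2 and Col3a1, and the summed intensity of that list was 278 to 298 in untreated and 301 to 358 in TGF-beta samples. No marker in the fibroblast and muscle, leukocyte, endothelial or enteric glia and neuron lists passed between the treatments, with 1, 2, 0 and 1 tested. The summed leukocyte intensity was 208 to 242 untreated and 213 to 245 with TGF-beta, the endothelial 152 to 183 and 147 to 164, and the glial and neuronal 108 to 134 and 108 to 151. Each sum takes the brightest probe of every gene with a probe, detected or not. In these lists of mostly untested genes the sums are therefore largely background.

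Retinol enters cells partly through Stra6, which binds the plasma carrier of retinol. Rdh10 oxidises retinol to retinaldehyde, Dhrs3 reduces retinaldehyde back to retinol, and the Aldh1a enzymes oxidise retinaldehyde irreversibly to retinoic acid. Crabp2 hands retinoic acid to the Rar receptors, which bind DNA together with Rxr receptors, and Cyp26 enzymes break retinoic acid down. In the gut, retinoic acid is known for its part in epithelial differentiation and in guiding lymphocytes to the mucosa.

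Transcripts of Stra6 (retinol uptake), Rdh10 (retinol to retinaldehyde) and Aldh1a3 (retinaldehyde to retinoic acid) were higher with TGF-beta. Aldh1a1, of the same step as Aldh1a3, was lower, and no probe of Dhrs3, Aldh1a2, Crabp2, Rara or Rarb was bright enough to be tested. Of the 8 genes that did not choose the list, 3 could be tested, and of these Stra6 and Rdh10 rose, 0 fell and Rarg did not pass. Among all 9062 genes tested, 9.56% rose and 9.88% fell. Rdh10 and Stra6 passed the filter on dim probes through the TGF-beta arrays, where they are high, so their share of the tested members carries no weight.

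Stra6, itself a gene that retinoic acid induces in other cells, gave 5.58, 4.74, 5.10 and 5.72 in untreated replicates 1 to 4 and 7.58, 7.36, 6.95 and 7.52 in TGF-beta replicates 1 to 4. Every TGF-beta sample lay above every untreated sample, a separation in that direction seen for 11.9% of all tested genes. The rise from 5.29 ± 0.45 to 7.35 ± 0.28 (SD, n = 4) was 4.19-fold, or 2.07 on the log2 scale (SE 0.23, limma adjusted p = 0.0003), with the probe detected on 2 untreated arrays. With undetected untreated values raised to the lowest detected signal of their array it was 3.97-fold, so the size of the fold is uncertain. A further Stra6 probe, annotated to another transcript, was detected on 1 of 8 arrays and lay between 4.61 and 5.39, so the rise was seen by 1 probe. Without background correction the rise was 0.81, and it was 0.87 in the authors' deposited log2 table. RefSeq lists 4 start sites for Stra6. The sequence shown is that of the 250 bases before the first of the 2 starts with most matches to a Smad core, CAGAC on either strand, since Smad proteins carry the TGF-beta signal to DNA; capitals mark the matches (GRCm38.p6, chr9:58133825-58134074, plus strand).

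Stra6: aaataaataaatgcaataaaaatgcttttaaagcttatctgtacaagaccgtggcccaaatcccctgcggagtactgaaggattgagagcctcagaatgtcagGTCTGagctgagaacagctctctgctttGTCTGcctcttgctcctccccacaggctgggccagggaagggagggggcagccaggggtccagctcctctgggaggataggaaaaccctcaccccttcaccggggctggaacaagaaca

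This window holds 2 matches, at 147 and 119 bases before the start, and 42.2% of all 32851 windows of that length hold at least 1. A match describes letters and not binding.

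Rdh10, the enzyme that in mouse embryos supplies most retinaldehyde, gave 4.74, 5.27, 5.48 and 4.75 in untreated and 7.16, 6.68, 6.55 and 6.53 in TGF-beta replicates 1 to 4. The groups did not overlap, a separation in that direction seen for 11.9% of all tested genes. Untreated replicates 1 and 4 lay under the lowest detected signal, so the size of the fold is uncertain. The mean rose from 5.06 ± 0.37 to 6.73 ± 0.30 (SD, n = 4), 3.19-fold by the normalized values. With undetected untreated values raised to the lowest detected signal of their array it was 2.82-fold. By the normalized values the log2 difference was 1.67 (SE 0.21, limma adjusted p = 0.00066). The only named Rdh10 probe carried this result, which was 0.56 without background correction and 0.61 in the authors' deposited log2 table, both past the threshold. Dhrs3, which runs the opposite reaction and is induced by retinoic acid in many tissues, had 2 probes, neither detected on any array, with values between 4.34 and 4.76.

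**Figure D1:**
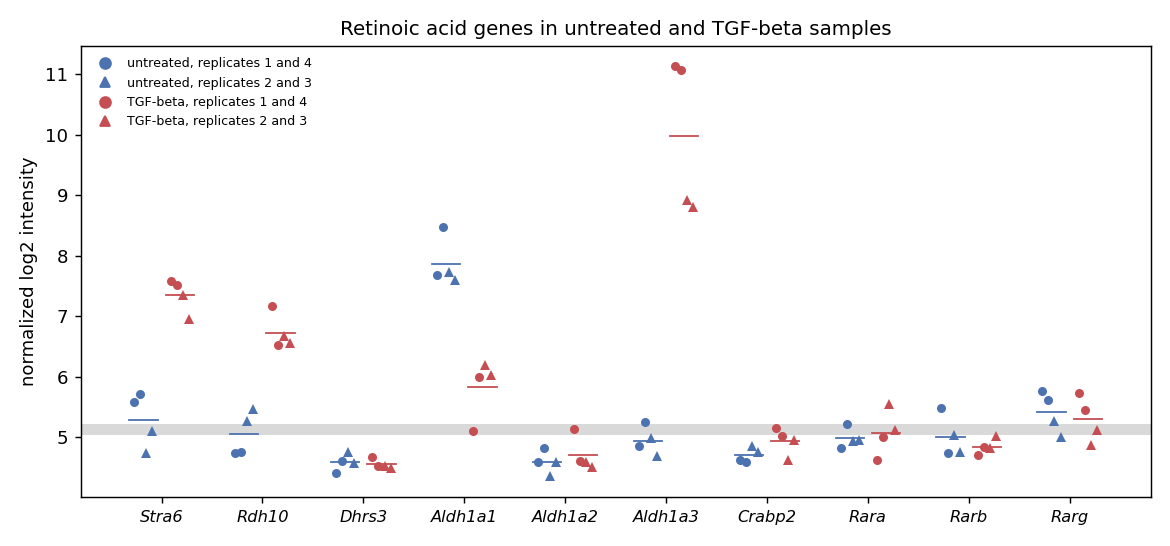
Normalized log2 intensity (vertical axis) of the 10 genes in each sample, by the probe tested or, where none was tested, the brightest. Blue marks are untreated and red marks TGF-beta samples, circles replicates 1 and 4, triangles replicates 2 and 3, horizontal lines group means, and the grey band the lowest detected signals of the 8 arrays, 5.04 to 5.23; Stra6, Rdh10 and Aldh1a3 lie higher and Aldh1a1 lower in all 4 TGF-beta samples, while Dhrs3 stays under the band.

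Among the retinaldehyde dehydrogenases, Aldh1a3 was higher and Aldh1a1 lower with TGF-beta, and these are the values that chose the list. The brightest Aldh1a3 probe gave 4.86, 4.99, 4.70 and 5.25 in untreated and 11.13, 8.92, 8.80 and 11.07 in TGF-beta replicates 1 to 4. Untreated samples sat at background, with 1 of 4 arrays detected, and the TGF-beta samples fell into a high pair (replicates 1 and 4) and a lower pair (replicates 2 and 3). The means were 4.95 ± 0.23 and 9.98 ± 1.29 (SD, n = 4), a log2 difference of 5.03 (SE 0.51). That is 32.7-fold by the normalized values and 29.2-fold with undetected untreated values raised to the lowest detected signal of their array, so the size of the fold is uncertain. A second Aldh1a3 probe gave 4.54, 4.35, 4.57 and 4.85 in untreated and 7.37, 5.56, 5.94 and 7.34 in TGF-beta replicates 1 to 4, at least 2.77-fold higher, since it was detected on 0 untreated arrays and its untreated level is only a bound. The same samples were high by both probes. The third probe, annotated to a different cDNA, was detected on 0 of 8 arrays and stayed between 4.46 and 4.84, so the named Aldh1a3 probes disagree on the size of the difference and on whether there is a signal. Without background correction the difference at the brightest probe was 2.89, and in the authors' deposited log2 table it was 3.03.

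Aldh1a1, a retinaldehyde dehydrogenase of the mouse intestinal epithelium and a marker of progenitor cells in several tissues, gave 7.67, 7.73, 7.60 and 8.47 in untreated and 5.10, 6.19, 6.03 and 6.0 in TGF-beta replicates 1 to 4. The groups did not overlap, a separation in this direction seen for 12.9% of all tested genes. Untreated samples averaged 7.87 ± 0.40 and TGF-beta samples 5.83 ± 0.49 (SD, n = 4), 4.11-fold lower, a log2 difference of -2.04 (SE 0.27), with 3 TGF-beta arrays detected. Without background correction the difference was -0.96, and from the authors' deposited log2 table it was -1.03. In RNA from whole organoids, fewer cells that express a gene and less RNA per cell cannot be told apart. Aldh1a7, a close relative of Aldh1a1 in the mouse, fell from 6.69 ± 0.39 to 5.57 ± 0.40 (SD, n = 4), 2.18-fold (limma adjusted p = 0.0098), and whether the probe of either gene also picks up the other transcript was not tested. Aldh1a2, the enzyme of stromal and dendritic cells, was detected on 1 of 8 arrays by its brighter probe, at 4.36 to 5.14, and on none by the other. For Aldh1a1 the window shown is again the one of its 2 listed starts with most matches, here to the half-site of retinoic acid receptors (AGGTCA or GGGTCA or AGTTCA or GGTTCA, either strand) or to CAGAC, in capitals (GRCm38.p6, chr19:20601718-20601967, plus strand).

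Aldh1a1: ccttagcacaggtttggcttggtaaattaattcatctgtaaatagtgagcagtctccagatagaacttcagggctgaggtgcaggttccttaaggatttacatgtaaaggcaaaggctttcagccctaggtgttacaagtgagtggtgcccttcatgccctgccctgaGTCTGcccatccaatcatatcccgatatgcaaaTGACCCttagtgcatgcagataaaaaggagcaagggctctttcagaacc

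The window holds 1 half-site 49 bases and 1 Smad core 82 bases before the start, and 38.6% of all windows of this length hold a half-site.

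The receptors and the carrier were dim. Rarg, a receptor found mainly in epithelia such as skin, gave 5.77, 5.27, 5.01 and 5.62 in untreated and 5.73, 4.88, 5.13 and 5.45 in TGF-beta replicates 1 to 4, and the groups overlapped. Its mean was 5.42 ± 0.34 and 5.30 ± 0.37 (SD, n = 4), a log2 difference of -0.12 (SE 0.22) that did not pass (limma adjusted p = 0.771), and a second tested probe gave 0.07 (SE 0.19, adjusted p = 0.852). Rara, the receptor present in most tissues, was detected on 1 untreated and 2 TGF-beta arrays, at 4.62 to 5.56. Crabp2 was detected on 0 untreated arrays and 1 TGF-beta array, at 4.59 to 5.15. At these signals a change in Rara, Rarb or Crabp2 was not measurable.

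Rarb, the receptor whose own promoter is the textbook target of retinoic acid, had 3 probes. The brightest gave 5.48, 5.05, 4.75 and 4.75 in untreated and 4.71, 4.83, 5.02 and 4.83 in TGF-beta replicates 1 to 4, with 2 untreated arrays and 0 TGF-beta arrays detected, and the others were detected on no array. The 250 bases before its start are shown because they hold a response element of the classical kind, 2 half-sites in the same orientation 5 bases apart (GRCm38.p6, chr14:16575477-16575726, minus strand; capitals mark half-sites, the repeat with its spacer, and CAGAC).

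Rarb: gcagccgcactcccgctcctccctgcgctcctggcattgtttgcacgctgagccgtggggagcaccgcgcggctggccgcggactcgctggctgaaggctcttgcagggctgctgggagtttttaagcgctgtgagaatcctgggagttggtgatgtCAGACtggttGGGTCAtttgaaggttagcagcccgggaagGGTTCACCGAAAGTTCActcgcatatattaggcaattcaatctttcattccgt

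The repeat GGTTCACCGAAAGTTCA lies at chr14:16575513-16575529 and begins 53 bases before the start. Repeats of the 4 half-sites with a spacer of 5 bases occur on either strand in 0.0883% of all windows, and among the 17 windows listed for 7 of the 10 genes only this 1 holds such a repeat; spacers of 1 or 2 bases were found in 0 of the 17. The window also holds another half-site, GGGTCA, 83 bases before the start, and CAGAC at 93, neither overlapping the repeat. Aldh1a3, Rdh10 and Crabp2 have no entry in that table.

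The replicates of each group fall into 2 sets, and this division is independent of the TGF-beta contrast that chose the list. Xist, the transcript that silences an X chromosome in female cells, gave 4.45 to 4.69 in replicates 1 and 4 and 9.29 to 10.17 in replicates 2 and 3, with or without TGF-beta. Eif2s3y, a gene of the Y chromosome, gave 8.18 to 8.46 in the former and 4.42 to 4.72 in the latter. Each set holds 2 samples of each group. The samples of a group thus do not all come from 1 animal. The labels do not name the sets, so they are sets of samples and not groups of the study.

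The largest difference in response between the sets was at Aldh1a3 among the 7 tested probes. With TGF-beta its brightest probe averaged 11.10 in replicates 1 and 4 and 8.86 in replicates 2 and 3. Against untreated samples this was a log2 difference of 6.05 (SE 0.19) in replicates 1 and 4, with 1 of 2 untreated arrays detected. In replicates 2 and 3 it was 4.02 (SE 0.19), and with 0 of 2 untreated arrays detected there the level was at least 13.8-fold higher. Differences from undetected levels have uncertain sizes, and this carries over to the comparison of the effects. The difference between these effects was -2.03 (SE 0.27, unadjusted p = 1.7e-05 in limma's fit with an interaction term), just short of the threshold over all probes (adjusted p = 0.055), and the second Aldh1a3 probe gave -1.38 (SE 0.28, adjusted p = 0.16). The adjusted p of the brightest probe was 0.00015 without background correction, 0.00038 with median scaling, 0.00012 in the authors' deposited log2 table, 0.00091 with trended and robust variances, 0.058 with cyclic loess and 0.098 without the detection filter, and between 0.126 and 0.258 without any 1 sample. The mean of the tested Aldh1a3 probes gave -1.70 (adjusted p = 0.046, adjusted over genes). In the main interaction fit 0.011% of all genes passed (921 had an unadjusted p under 0.05), and 0 of the 5 tested members did (2 at an unadjusted p under 0.05).

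Stra6 rose by 1.90 (SE 0.20) in replicates 1 and 4 and by 2.23 (SE 0.20) in replicates 2 and 3, where it was detected on 0 of 2 untreated arrays and was at least 4.23-fold higher, a difference of 0.33 (SE 0.28, adjusted p = 0.74). Rdh10 rose by 2.10 in replicates 1 and 4, where 0 of 2 untreated arrays detected it and it was at least 3.37-fold higher, and by 1.24 in replicates 2 and 3 (SE 0.22 each), a difference of -0.86 (SE 0.30, adjusted p = 0.40). Aldh1a1 was lower by 2.52 and by 1.56 in the 2 sets (SE 0.31 each, log2), a difference of 0.96 (SE 0.44, adjusted p = 0.51). Rarg gave -0.10 and -0.14, a difference of -0.04 (SE 0.27, adjusted p = 0.97). All members that differed with TGF-beta had the same sign in both sets. Their groups did not overlap, so any split with both groups in each part would give this, and it adds no support.

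**Figure D2:**
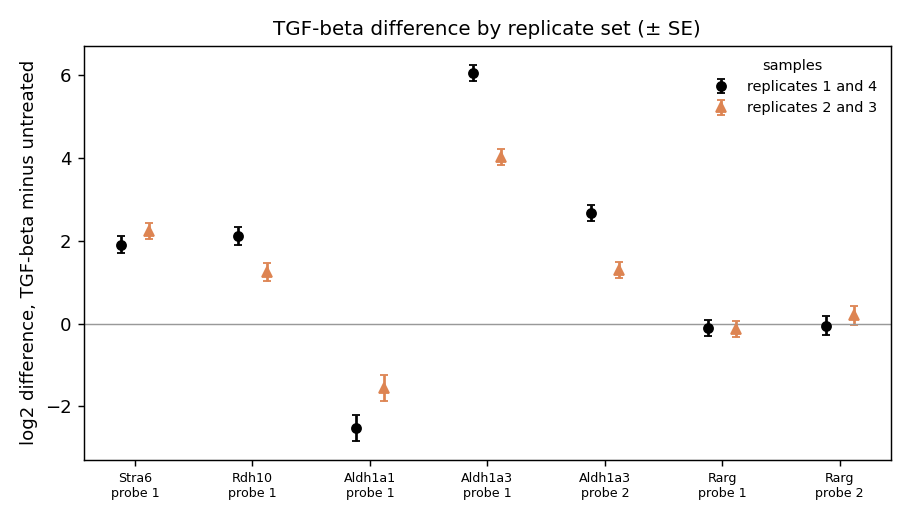
Log2 difference TGF-beta minus untreated (vertical axis) of the 7 tested probes, within replicates 1 and 4 (black circles) and within replicates 2 and 3 (orange triangles), with bars of 1 SE from the fit with an interaction term; probe 1 of a gene is its brightest. Aldh1a3 stands at 6.05 and 4.02 by its brightest probe, and Stra6 at 1.90 and 2.23.

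Averaged over treatment, 3 of the 5 tested members were lower in replicates 2 and 3 than in 1 and 4, and 0 were higher, where 20.3% of all genes differed, 11.2% lower and 9.04% higher. The set fit took all samples as independent. Samples of equal number in both groups appear to be pairs, so the p-values between sets may be too small. Rarg was 5.64 in replicates 1 and 4 and 5.07 in replicates 2 and 3, where its values (4.88 to 5.27) lay near the lowest detected signals. Rarg differed by -0.57 (SE 0.13, limma adjusted p = 0.012), and the size is uncertain. It kept this call without any 1 sample (adjusted p 0.016 to 0.047) and missed it without background correction (-0.15, adjusted p = 0.083), with median scaling (-0.54, adjusted p = 0.077) and in the authors' deposited log2 table (-0.17, adjusted p = 0.082), and the second Rarg probe gave -0.29 (SE 0.16, adjusted p = 0.25). Stra6 differed by -0.56 (SE 0.15, adjusted p = 0.022), with 0.055 to 0.068 without untreated replicates 2 or 4 or TGF-beta replicate 3. In replicates 2 and 3 it was detected on 0 of 2 untreated arrays, so the size is uncertain. Without background correction the Stra6 difference was -0.21 (adjusted p = 0.044), and in the authors' deposited log2 table it was -0.22 (adjusted p = 0.047). Aldh1a3 differed by -1.23 (SE 0.33, adjusted p = 0.022), carried by the TGF-beta samples since the untreated ones sat at background, with 0.072 to 0.074 without any 1 TGF-beta sample, 0.075 with trended and robust variances and 0.105 without the detection filter. Aldh1a1 (0.08, SE 0.25, adjusted p = 0.87) and Rdh10 (0.20, SE 0.20, adjusted p = 0.53) did not pass.

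Around these 10 genes, 77 other retinoid genes in 5 lists were followed, 69 with a named probe and 36 of them tested. With TGF-beta 5 rose and 4 fell (limma; 6 and 5 at an unadjusted p under 0.05), 25% of those tested against 19.4% of all genes, with a median log2 difference of -0.09 against -0.05. With the replicate number as a block 9 rose and 10 fell (31.7% of all genes tested passed in that fit), with median scaling 1 rose and 5 fell, and without the filter on dim probes 3 rose and 3 fell.

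All 4 that fell stood in the list of other retinol and retinaldehyde enzymes, among 12 tested, where 9.88% of all genes fell. Whether Aldh1a7 acts on retinaldehyde was not tested. Besides Aldh1a7, the retinaldehyde reductase Rdh11 fell by 0.55 on the log2 scale (SE 0.15, limma adjusted p = 0.028), and a second probe gave -0.64 (SE 0.12, adjusted p = 0.0053). The dehydrogenase Rdh9 fell by 0.98 (SE 0.28, adjusted p = 0.034) and the alcohol dehydrogenase Adh5 by 0.57 (SE 0.16, adjusted p = 0.032). Rdh11 lost its call when untreated replicate 2, 3 or 4 or TGF-beta replicate 2 or 3 was left out (adjusted p 0.060 to 0.077). Rdh9 lost it without untreated replicate 1, 2 or 3 or TGF-beta replicate 3 or 4 (0.056 to 0.083), and Adh5 without any 1 untreated sample or TGF-beta replicate 1 or 4 (0.053 to 0.082). Rdh9 also missed the threshold without the detection filter (0.094). Without background correction Aldh1a7 fell by 0.40 and Rdh9 by 0.49. With the replicate number as a block 9 of the 12 fell, now also Adh1, Adh4, Rdh7, Dhrs4 and the retinol saturase Retsat (adjusted p = 0.00044), and the reductase Akr1b8 rose (0.44, adjusted p = 0.039), where 17.3% of all genes fell and 14.4% rose in that fit.

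Of the 7 tested genes listed as known retinoic acid targets, 4 rose and 0 fell (limma; 5 and 0 at an unadjusted p under 0.05), where 9.56% of all genes rose and 9.88% fell. Gprc5a, an orphan receptor first found as induced by retinoic acid, rose 3.41-fold from 8.43 ± 0.97 to 10.20 ± 0.06 (SD, n = 4; limma adjusted p = 0.011). Tgm2, a protein crosslinking enzyme, rose by 0.65 (SE 0.14, adjusted p = 0.011), the homeobox gene Meis2 by 0.89 (SE 0.26, adjusted p = 0.042) and the plasminogen activator Plat by 0.85 (SE 0.26, adjusted p = 0.049). Meis2 lost its call when untreated replicate 1, 2 or 4 or TGF-beta replicate 2 or 3 was left out (adjusted p 0.079 to 0.0998), and Plat without untreated replicate 2 or 3 or any 1 TGF-beta sample (0.069 to 0.12). Tgm2, Meis2 and Plat also missed it with median scaling (adjusted p = 0.145, 0.098 and 0.125), Meis2 and Plat without the detection filter (0.110 and 0.127), and Meis2 without background correction (0.071) and in the authors' deposited log2 table (0.067). Cdx1 stands in this list and among the epithelial markers, several genes of the list also respond to other signals, and Hoxb1, Hic1, Meis1, Stra8, Cebpe and Btg2 were detected on no array.

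Of 7 tested genes for retinoid uptake, storage and carriage 0 passed (limma, 0 at an unadjusted p under 0.05), where 19.4% of all genes did. With the replicate number as a block the carotene cleaving Bco2 and Rbp2 rose and Isx fell, where 14.4% of all genes rose and 17.3% fell. Lrat, which stores retinol as esters, Crabp1, Fabp5 and Stra6l were detected on no array. Cyp26a1 and Cyp26b1, the enzymes that clear retinoic acid and respond strongly to it, were detected on no array, with Cyp26a1 between 4.32 and 4.72 over both probes and Cyp26b1 between 4.26 and 4.51. Of 9 tested receptor partners and coregulators, 1 rose and 0 fell, where 9.56% of all genes rose and 9.88% fell. The riser, Tnip1, a restraint on NF-kappaB that also binds Rar receptors, rose by 0.78 (SE 0.16, adjusted p = 0.007). It missed the threshold with median scaling (0.61, adjusted p = 0.072), and its other tested probes gave 0.42 and 0.47 (adjusted p = 0.12 each). Rxra, the usual partner of the Rar receptors, gave 0.34 (SE 0.19, adjusted p = 0.261).

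Of the 36 tested, 16 were higher and 3 lower in replicates 2 and 3 than in 1 and 4, 52.8% against 20.3% of all genes. Without any 1 sample 13 to 19 passed. These calls and p-values between sets share the limit given above, that samples that appear paired were taken as independent. The genes named next were chosen after their values were seen. Adh1, an alcohol dehydrogenase that oxidises retinol, averaged 7.14 in replicates 1 and 4 and 11.41 in replicates 2 and 3, 19.3-fold higher (limma adjusted p = 2.5e-08). Rbp2, the retinol carrier of enterocytes, was 9.93-fold higher (adjusted p = 3e-06), Dgat1, which esterifies retinol among other lipids, 3.04-fold higher and the carotene cleaving enzyme Bco1 2.02-fold higher. Isx, the intestinal repressor of Bco1 that retinoic acid induces, ran the other way and was 3.53-fold lower in replicates 2 and 3 (adjusted p = 4.8e-05). Between TGF-beta and untreated samples none of these 5 genes passed (adjusted p from 0.409 to 0.808). With the replicate number as a block Adh1 fell by 1.11 (SE 0.17, adjusted p = 0.0013), Isx fell by 0.80 (SE 0.17, adjusted p = 0.0073) and Rbp2 rose by 0.90 (SE 0.23, adjusted p = 0.016). Epithelial markers also differed between the sets, with 4 of 11 higher and 1 lower in replicates 2 and 3, among them Krt20 by 2.08 and Olfm4 by 1.71 on the log2 scale. Their part in the differences of the retinoid genes was not tested.

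**Figure D3:**
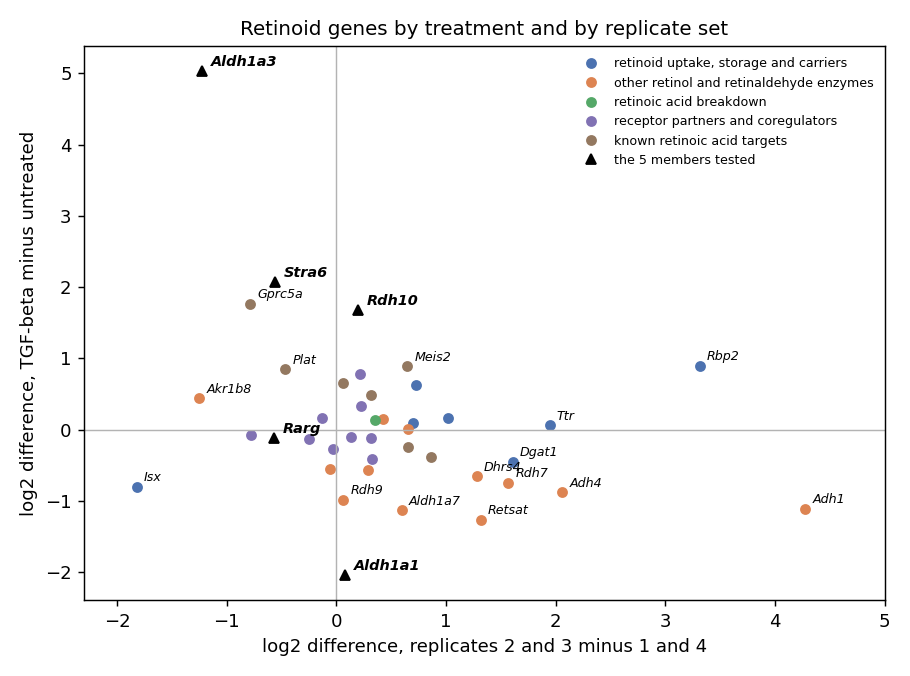
Log2 difference TGF-beta minus untreated (vertical axis) against log2 difference replicates 2 and 3 minus 1 and 4 (horizontal axis) for the 36 tested other retinoid genes, coloured by list, and the 5 tested members (black triangles), 1 probe per gene. Aldh1a3 stands at the top at 5.03 and Aldh1a1 at the bottom at -2.04, while Adh1 and Rbp2 lie far to the right at 4.27 and 3.31.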

How the data were processed

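Total RNA was labelled with biotin as cRNA and hybridised to Illumina bead arrays, per the labels' protocols. The deposited table holds non-normalized signal intensities and a detection p-value per probe, per the file headers. The authors' deposited log2 value table comes with no stated method. Its column medians are all 7.1, its columns share a distribution, and each column correlates at 0.998 or more with its array's log2 intensities; it was used as an alternative. Every measurement column was used.

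Intensities were corrected with normexp (nec, offset 16), its background estimated through the detection p-values, and arrays were quantile normalized (limma 3.58.1, R 4.3.3). Probes with detection p under 0.05 on at least 4 of 8 arrays, 15573 in all, were fitted with lmFit and eBayes, two-sided, with Benjamini-Hochberg adjustment over all of them and a threshold of 0.05. The treatment fit had group alone, the set fit group and set, and the interaction fit both with their product. Gene names came from the platform annotation (34885 probes with 1 symbol, 18 with several, 10378 not listed). Of several tested probes of a gene, the one of highest mean stands for it.

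The members, the 5 other retinoid lists, the 5 marker lists and the tests were chosen with earlier results of these data known. The genes named are the members, the other list genes past the threshold, at most 6 a list, and Rxra, Cyp26a1, Cyp26b1, Lrat and Aldh1a7 whatever their value (1 further gene is not reported here); others are said to be chosen after their values were seen or gained a call with the replicate block. After group means were subtracted, untreated and TGF-beta samples of equal number correlated at 0.513 to 0.555. Each untreated sample correlated most with the TGF-beta sample of its own number, so the numbers appear to pair the samples. Samples of 1 set may also be alike, and each set holds 2 TGF-beta samples, so pairing beyond the set was not tested separately. The pairing comes from these values, and the labels tie the numbers to nothing. Alternatives were other background corrections, scalings, filters and variances, averaged probes, blocks and leaving out each sample. The scripts were tested on simulated data. Promoter sequences are RefSeq's, of GRCm38.p6. The number of arrays limits the precision. Figures were drawn with matplotlib 3.10.9.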

Additional observations from a re-analysis of the deposited data

Results flagged for a closer look

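Of 34 groups of 4 samples examined for a sample apart from the rest, 2 had a gap to the nearest sample over the group's range above Dixon's critical value, where chance gives about 1 group in 20. For Aldh1a1, untreated replicate 4 (8.47) lay above the other untreated samples (7.60 to 7.73), a ratio of 0.849, and without it Aldh1a1 was lower by 1.84 on the log2 scale. For Tgm2, untreated replicate 4 (9.94) lay below the others (10.33 to 10.37), a ratio of 0.910.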

How the results depend on the processing

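Stra6 and Rdh10 passed with TGF-beta and Rarg did not in every alternative that tested them, the replicate block included; the filter asking for detection p under 0.01 on all 8 arrays left 0 members. Among the other retinoid genes, 5 higher and 4 lower in the main fit became 9 and 10 with the replicate block, 8 and 11 with the set as a block, 1 and 5 with median scaling and 3 and 3 without the detection filter, and 3 to 4 higher and 1 to 4 lower without any 1 sample. The cause was not tested. With the replicate block Adh1, Adh4, Akr1b8, Bco2, Dhrs4, Isx, Rbp2, Rdh7, Ret and Retsat gained a call, none lost one, and no call of a member changed.

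The difference of effects between the sets passed for 0 members, and for 1 (Aldh1a3) without background correction, with median scaling, in the authors' table, with trended and robust variances and with averaged probes; of the other genes, 0 passed, but 2 without background correction and in the authors' table, and 1 with trended and robust variances, averaged probes or the stricter filter. The set difference passed for 3 members (1 to 3 without any 1 sample), and for 19 other genes but 11 with the stricter filter, which tests fewer genes (13 to 19 without any 1 sample).

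Of 413 single-gene values, 13 changed sign, all of differences that did not pass: the Aldh1a1 set difference (0.08; -0.054 without background correction and -0.05 in the authors' table, -0.20 to 0.33 without any 1 sample), the Stra6 interaction (0.33; -0.018 without background correction and -0.015 in the authors' table), and for Rarg the interaction (-0.04; 0.077 with cyclic loess, 0.11 with averaged probes, -0.17 to 0.10 without any 1 sample) and the treatment difference (-0.12; 0.021 without TGF-beta replicate 2, -0.27 to 0.021 without any 1 sample). Another 48 lost their call, 5 gained it and 5 moved by over 1 SD. Under median scaling the all-gene median went from -0.05 to -0.18, and the share of rises among calls went from 49.2% to 34.5%. Signals near the lowest detected limit what can be said of Rara, Rarb, Rarg, Crabp2, Dhrs3 and Aldh1a2.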

Other observations

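The sets stood apart for Gprc5a in the untreated samples. By its brighter probe the untreated samples gave 9.14 and 9.37 in replicates 1 and 4 and 7.44 and 7.77 in replicates 2 and 3, while all 4 TGF-beta samples lay between 10.13 and 10.28. Its rise was thus 1.87-fold in replicates 1 and 4 and 6.22-fold in replicates 2 and 3, a log2 difference of 1.74 (SE 0.26, limma with an interaction term, adjusted p = 0.055, unadjusted p = 4e-05). The sign is opposite to that of Aldh1a3 (-2.03). Adh4, an alcohol dehydrogenase active on retinol, lay at background in replicates 1 and 4 and in replicates 2 and 3 gave 7.29 and 7.46 untreated and 5.69 and 5.99 with TGF-beta, a difference of effects (-1.33, SE 0.26) that did not pass (adjusted p = 0.13). Both genes were picked after their values were seen.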
